A study of Mus musculus with 109 samples.

Results

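The type 1 alveolar cell genes described here are Ager, Pdpn, Aqp5, Hopx, Igfbp2, Rtkn2, Clic5, Emp2, Akap5 and Igfbp6. Their probes were taken by gene symbol from the platform annotation of the array: 12 of its 25697 probes carried a symbol of 9 of the 10 genes, and none carried Akap5. Total RNA of mouse lung was measured on single-colour bead arrays, 1 for each sample of the series, after 6 months of cigarette smoke (5 days a week, main-stream and side-stream smoke of research cigarettes together) or of filtered air. Hhip+/- mice, heterozygous for the gene of a Hedgehog-binding protein, gave 14 smoke and 12 air arrays, and Fam13a-/- mice 13 smoke and 6 air arrays, both labelled as C57BL6 strain. NZW/LacJ mice labelled wild type gave 6 smoke and 8 air arrays. C57BL/6J mice labelled wild type gave 28 smoke and 22 air arrays and served as the group against which the others were set. The labels name no sex, age, litter or slide and do not say how the alleles were made. They also do not state that each array stands for its own animal, so a p-value here covers only the spread between samples, which may be technical.

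Type 1 cells are the very thin, flat epithelial cells that cover most of the alveolar surface and through which gas is exchanged. They arise from type 2 cells, the cuboidal makers of surfactant, which serve as their progenitors in the adult lung. Emphysema, the loss of alveolar walls that smoke can cause, removes the surface these cells line. Of the genes described, Ager encodes RAGE, a receptor for advanced glycation end products, S100 proteins and HMGB1 that sits in the basolateral membrane of type 1 cells. Pdpn encodes podoplanin, a mucin-like glycoprotein of the apical membrane, Aqp5 an apical water channel, and Clic5 a protein of the chloride intracellular channel family that binds the cortical cytoskeleton. Emp2 encodes a membrane protein of the PMP22 family. Igfbp2 and Igfbp6 encode secreted proteins that bind insulin-like growth factors, and Igfbp2 marks mature type 1 cells in mice. Hopx encodes a small homeodomain protein that does not bind DNA, Rtkn2 a protein of the rhotekin family, and Akap5 a scaffold that anchors protein kinase A.

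Of the 12 probes, 10 were kept, standing for 7 genes. A probe counts as detected on an array when its detection p was below 0.01, and a probe was kept when at least 6 arrays detected it, as 15363 of all probes were. The Hopx probe (ILMN_2669426) and the Rtkn2 probe (ILMN_3087828) were detected on 0 arrays, with group means of the normalized log2 signal of 4.38 to 4.49 and 4.55 to 4.71. Hopx and Rtkn2 are therefore reported only as not above background on this array. The kept probes were detected on every array, except that the dimmer Igfbp2 probe (ILMN_1236788) was not detected on 1 NZW/LacJ smoke array. The array thus gave a signal for 7 of the 10 genes, and says nothing of Akap5, which had no probe. All values below are normalized log2 signals, so that a difference of 1 is a doubling. Levels of different genes were not compared with each other.

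Some arrays stood apart before any comparison. The 200 probes, members left out, whose C57BL/6J median lay furthest above the NZW/LacJ median gave each array a strain value. It was near 1 for an array like NZW/LacJ and near 0 for an array like C57BL/6J. NZW/LacJ air replicate 5 had a value of 0.12 and NZW/LacJ smoke replicate 5 a value of 0.02. The other 12 NZW/LacJ arrays lay between 0.88 and 1.09. Both arrays stayed in the groups their strain labels give, the titles of all 14 name C57, and the main NZW/LacJ results below are also given without these 2. A clustering of residuals, chosen after seeing the data, split the remaining arrays into sets of 27 and 80 that cut across all 8 groups. Between 36% and 53.9% of probes were detected per array, and the number of arrays limits the precision. The Fam13a probe (ILMN_1224427) averaged 5.44 in Fam13a-/- smoke and 5.70 in Fam13a-/- air, against 6.07 in C57BL/6J smoke and 6.12 in C57BL/6J air. These means are low but above those of the undetected Hopx and Rtkn2 probes. The groups overlapped, with single arrays as low as 4.59 in Fam13a-/- smoke and 4.81 in C57BL/6J air. In NZW/LacJ the probe averaged 7.545 in smoke and 7.04 in air. The Hhip probe (ILMN_2684250) averaged 6.54 in Hhip+/- smoke and 6.55 in Hhip+/- air, against 6.57 in C57BL/6J smoke and 6.60 in C57BL/6J air, so it did not separate the heterozygotes. Whether these probes lie in the altered part of their genes is not given in the labels.

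Igfbp2 was the 1 gene of the 7 whose level rose with smoke in C57BL/6J lungs. Its brighter probe (ILMN_2930897) ran from 10.90 to 12.21 in the 28 smoke arrays, with a median of 11.68, against 10.15 to 11.77 in the 22 air arrays, with a median of 11.27. The groups overlapped, and 25 of 28 smoke arrays lay above the mean of air. The mean was 11.64 ± 0.35 in smoke and 11.16 ± 0.43 in air (SD, n = 28 and 22), a difference of 0.47 ± 0.11 (SE; 95% interval 0.24 to 0.70; limma adjusted p = 0.0119), or 1.39-fold. Adjusted p-values are limma's, by Benjamini-Hochberg over all 15363 probes, and a probe passed when that value was below 0.05. In this comparison 1 of the 10 probes passed, while 0.833% of all probes did. In whole lung, more cells of a type and more RNA per cell cannot be told apart.

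The second Igfbp2 probe (ILMN_1236788) moved the same way. It ran from 9.98 to 11.61 in C57BL/6J smoke, with a median of 10.98, and from 8.55 to 11.01 in C57BL/6J air, with a median of 10.37. Again 25 of 28 smoke arrays lay above the mean of air. Its difference of 0.68 ± 0.21 (SE) did not pass in limma with all arrays (adjusted p = 0.127). It passed without the NZW/LacJ arrays doubted for strain (adjusted p = 0.0243). The model takes 1 spread for each probe from all groups together. The lowest C57BL/6J array on both probes was air replicate 8, and without it the brighter probe still differed by 0.42 (limma adjusted p = 0.0378), and the dimmer one by 0.59 (adjusted p = 0.246). Within the residual sets the brighter probe differed by 0.28 in the smaller (8 smoke and 6 air arrays) and 0.55 in the larger (20 and 16). The dimmer probe differed by 0.43 in the smaller set and 0.76 in the larger set.

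**Figure D1:**
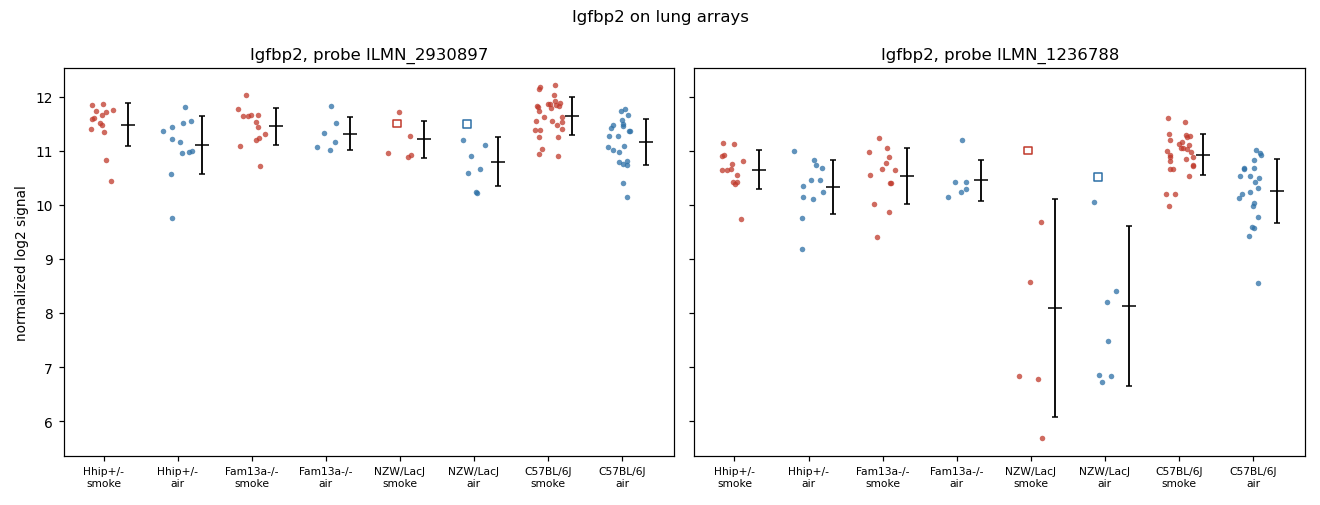
Normalized log2 signal of the Igfbp2 probes (vertical axis) in the 8 groups (horizontal axis; smoke in red, air in blue). Points are arrays, open squares the 2 NZW/LacJ arrays doubted for strain, and bars the mean with its SD; C57BL/6J smoke arrays lie mostly above C57BL/6J air arrays on both probes, and the dimmer probe is low and widely spread in NZW/LacJ.

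Promoter sequence is shown for Igfbp2, the gene that rose, and for Aqp5 and Emp2, which varied together closely across arrays on the brighter Aqp5 probe. Ager and Clic5 varied together more closely over all arrays, and their windows are not shown. The windows are the 250 bases before a RefSeq start on GRCm38.p6, on the gene's own strand and 5′ to 3′: chr1:72824230-72824479 on the plus strand for Igfbp2, chr15:99590778-99591027 on the plus strand for Aqp5, and chr16:10313969-10314218 on the minus strand for Emp2. Capitals mark GCGTG, the core of the xenobiotic response element, and TGACNNNGC, the core of the antioxidant response element, each read on both strands.
Igfbp2: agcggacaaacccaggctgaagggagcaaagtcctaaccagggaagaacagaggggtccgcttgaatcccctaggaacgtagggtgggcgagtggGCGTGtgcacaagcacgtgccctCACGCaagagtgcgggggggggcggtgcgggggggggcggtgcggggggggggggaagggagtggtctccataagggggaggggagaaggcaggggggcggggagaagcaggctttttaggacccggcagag
Aqp5: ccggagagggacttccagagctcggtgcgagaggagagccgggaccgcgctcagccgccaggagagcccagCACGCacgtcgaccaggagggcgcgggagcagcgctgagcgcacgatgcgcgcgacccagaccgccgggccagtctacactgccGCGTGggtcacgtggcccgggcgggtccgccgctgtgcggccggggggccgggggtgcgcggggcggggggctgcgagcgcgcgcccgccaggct
Emp2: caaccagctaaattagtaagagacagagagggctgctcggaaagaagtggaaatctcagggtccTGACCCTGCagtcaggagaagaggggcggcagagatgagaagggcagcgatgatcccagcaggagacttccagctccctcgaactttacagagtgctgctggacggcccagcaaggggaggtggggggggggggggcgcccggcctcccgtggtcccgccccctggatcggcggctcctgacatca
The Igfbp2 window held GCGTG on the plus strand at position -155 and on the minus strand at -132, where -1 is the last base before the start. The Aqp5 window held it on the minus strand at -179 and on the plus strand at -95, and the Emp2 window held TGACNNNGC on the plus strand at -186. Igfbp2 has another RefSeq start, whose window (chr1:72825137-72825386, not shown) held neither GCGTG nor TGACNNNGC. GCGTG is common: it stood in 28.2% of 32851 promoter windows of this length, and in 4 of the 11 windows of 9 member genes. TGACNNNGC stood in 10.2% of all windows and in 2 of those 11, those of Emp2 and Clic5. CATTCC, the core bound by TEAD factors, stood in 12.6% of all windows and CAAGTG, a core bound by NKX2-1, in 11.6%, and in 0 of the 11 each. The Ager window held none of the words counted. A match is a run of letters and says nothing of binding, and these words do not overlap each other in the windows shown.

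In the other strain and genotypes the Igfbp2 difference had the same sign on the brighter probe but did not pass. In Hhip+/- lungs it ran from 10.44 to 11.86 in 14 smoke arrays (median 11.60) and from 9.76 to 11.81 in 12 air arrays (median 11.18), a difference of 0.38 ± 0.16 (SE; limma adjusted p = 0.761). In Fam13a-/- lungs the 13 smoke arrays ran from 10.71 to 12.03 (median 11.53) and the 6 air arrays from 11.01 to 11.82 (median 11.24), a difference of 0.14 ± 0.20 (SE; limma adjusted p = 0.801). NZW/LacJ lungs gave 10.89 to 11.71 in 6 smoke arrays (median 11.12) and 10.22 to 11.49 in 8 air arrays (median 10.78), a difference of 0.41 ± 0.22 (SE; limma adjusted p = 0.402), with all 6 smoke arrays above the mean of air. The groups overlapped in each case. The dimmer probe differed by 0.33 ± 0.29 in Hhip+/-, 0.07 ± 0.36 in Fam13a-/- and -0.04 ± 0.39 in NZW/LacJ (SE), and by -0.28 in NZW/LacJ without the doubted arrays, so in NZW/LacJ the signs of the 2 probes differed.

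Without array weights, no Igfbp2 probe passed the test for a smoke effect that differs from that in C57BL/6J. On the brighter probe the smoke effect of Hhip+/- minus that of C57BL/6J was -0.09 (95% interval -0.48 to 0.29), that of Fam13a-/- minus C57BL/6J was -0.33 (-0.78 to 0.12), and that of NZW/LacJ minus C57BL/6J was -0.06 (-0.54 to 0.43). On the dimmer probe the differences were -0.35 (-1.05 to 0.35), -0.60 (-1.42 to 0.22) and -0.72 (-1.60 to 0.16) for Hhip+/-, Fam13a-/- and NZW/LacJ, and with array weights that of NZW/LacJ passed (-1.21; limma adjusted p = 0.0175). Without the doubted arrays it was -0.96 (-1.75 to -0.17) and did not pass after adjustment (limma adjusted p = 0.205). With all arrays and no weights, the intervals include no difference and also one as large as the C57BL/6J rise itself. Averaged over Hhip+/-, Fam13a-/- and C57BL/6J, the smoke effect on the brighter probe was 0.33 ± 0.09 (SE; limma adjusted p = 0.0316). Here 1 of the 10 probes passed and 2.32% of all probes did. That average holds the C57BL/6J arrays again, and its call was lost without any of 5 single arrays (Fam13a-/- air replicates 1, 3 and 5, and Hhip+/- air replicates 3 and 6), with adjusted p up to 0.0717.

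No probe of the other 6 measured genes passed for smoke in C57BL/6J lungs. RAGE's gene Ager ran from 13.34 to 14.23 in smoke (median 13.92) and from 13.41 to 14.19 in air (median 13.82) on its brighter probe (ILMN_1224092). Its difference was 0.06 ± 0.07 (SE; 95% interval -0.08 to 0.20), and its second probe (ILMN_1239451) gave 0.04 ± 0.10. The smoke and air arrays of C57BL/6J overlapped nearly whole for Ager. Pdpn (ILMN_2654754), the podoplanin gene, ran from 12.41 to 13.05 in smoke (median 12.68) and from 12.24 to 12.98 in air (median 12.67), a difference of 0.03 ± 0.06 (SE). The water channel gene Aqp5 differed by 0.07 ± 0.06 (ILMN_3115472) and 0.06 ± 0.11 (ILMN_1259982). Clic5 (ILMN_2677634) differed by 0.09 ± 0.12 and Emp2 (ILMN_2598103) by 0.13 ± 0.08. Igfbp6 (ILMN_2689790), the second binding protein, differed by -0.09 ± 0.11. Limma's adjusted p for these 8 probes ran from 0.709 to 0.973. The 95% intervals reached 0.32 upward, the bound for Clic5, and -0.31 downward, the bound for Igfbp6. The median over the 10 probes was 0.07, against 0.00 over all probes. The sign for Ager turned between the residual sets, with its probes at -0.17 and -0.26 in the smaller set and 0.15 and 0.16 in the larger. Emp2 differed by -0.06 in the smaller set and 0.21 in the larger, and Igfbp6 by -0.31 and -0.02.

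**Figure D2:**
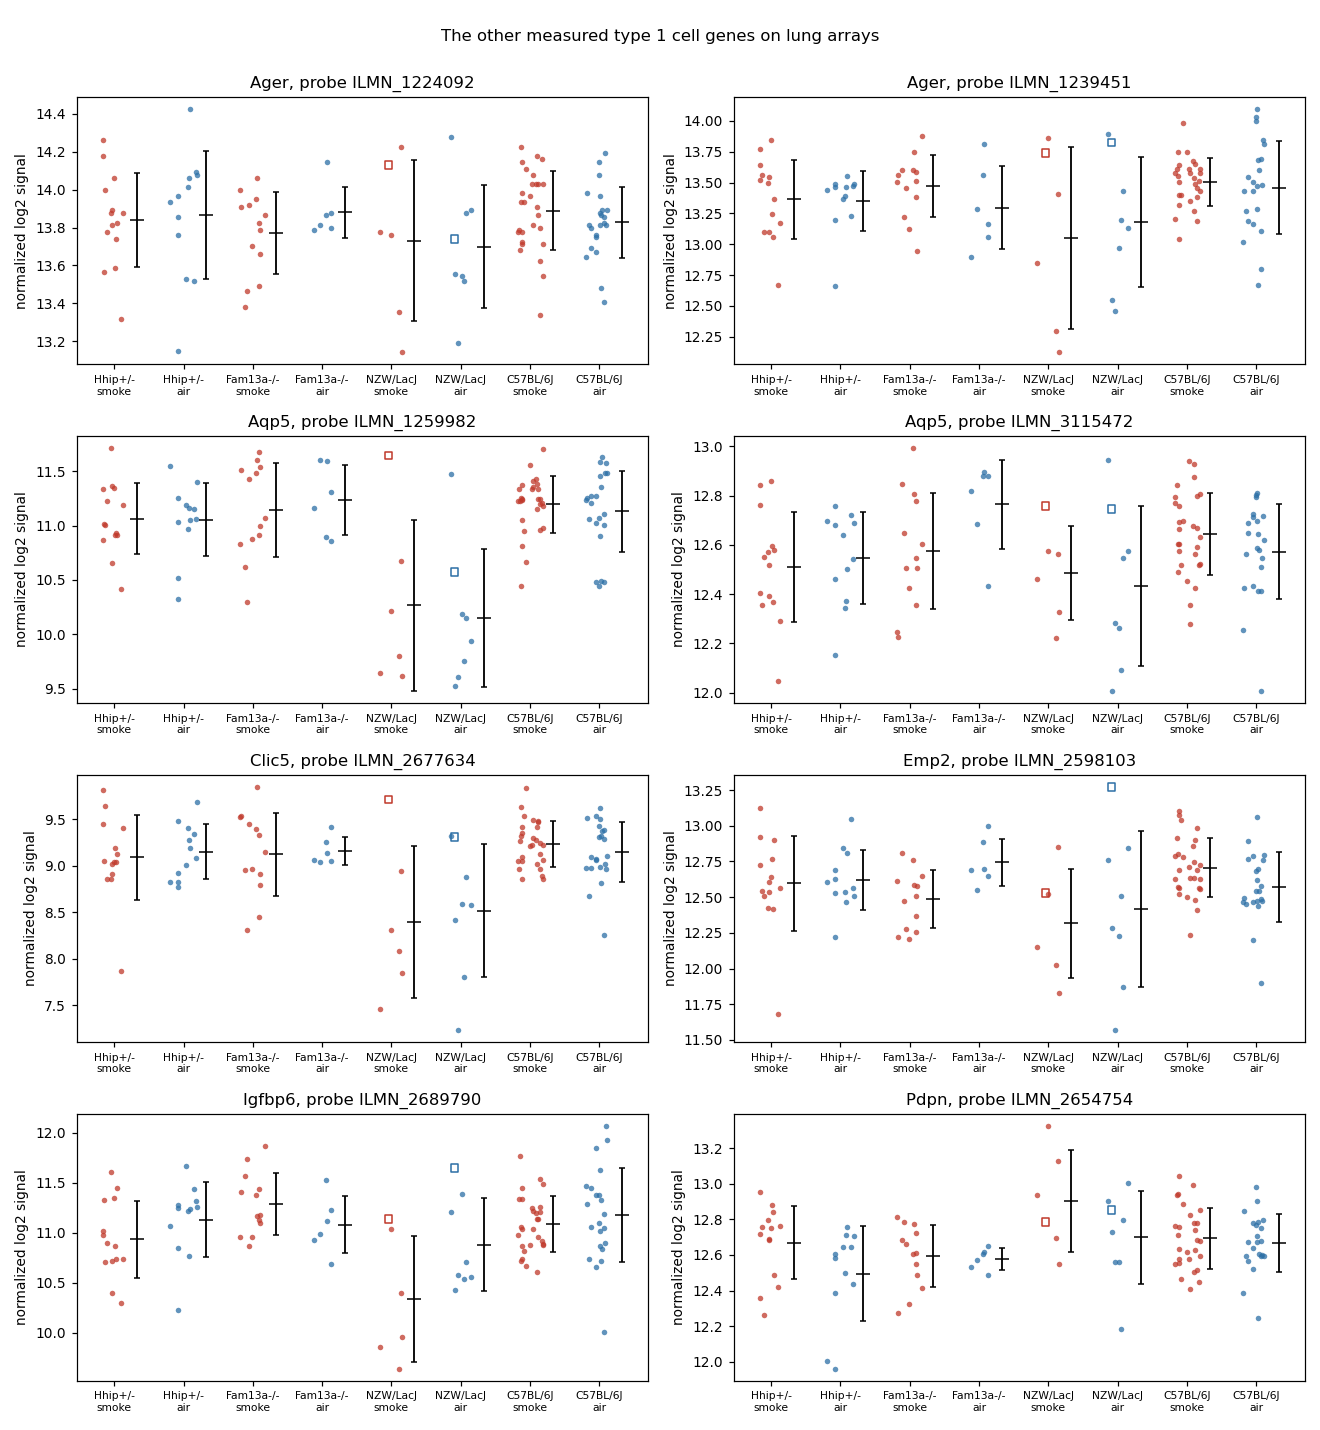
Normalized log2 signal (vertical axis, a scale of its own in each panel) of the probes of Ager, Aqp5, Clic5, Emp2, Igfbp6 and Pdpn in the 8 groups (horizontal axis; smoke in red, air in blue). Points are arrays, open squares the 2 NZW/LacJ arrays doubted for strain, and bars the mean with its SD; smoke and air arrays overlap within each strain or genotype, and NZW/LacJ arrays reach lower than C57BL/6J arrays for Aqp5 (ILMN_1259982) and Clic5.

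Smoke moved no member past the threshold in Hhip+/-, Fam13a-/- or NZW/LacJ lungs. In Hhip+/- lungs 0 of the 10 probes passed in limma, where 0.182% of all probes did, and 2 had an unadjusted p below 0.05, the brighter Igfbp2 probe and Pdpn. Pdpn ran from 12.26 to 12.96 in 14 Hhip+/- smoke arrays (median 12.74) and from 11.96 to 12.76 in 12 Hhip+/- air arrays (median 12.60), a difference of 0.17 ± 0.08 (SE; limma adjusted p = 0.837). In Fam13a-/- lungs 0 of the 10 passed, where 1.8% of all probes did, and 0 had an unadjusted p below 0.05. Emp2 lay furthest down there, with 12.21 to 12.81 in 13 smoke arrays (median 12.51) and 12.55 to 12.997 in 6 air arrays (median 12.69), a difference of -0.26 ± 0.14 (SE; limma adjusted p = 0.354). In NZW/LacJ lungs 0 of the 10 passed, where 0.768% of all probes did, and Igfbp6 alone had an unadjusted p below 0.05. Without the 2 doubted arrays 0 of the 10 passed as well, with a difference of 0.45 for the brighter Igfbp2 probe (limma adjusted p = 0.309) and -0.59 for Igfbp6 (adjusted p = 0.129).

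Igfbp6 in NZW/LacJ lungs read 9.64, 9.96, 9.86, 10.40, 11.14 and 11.03 in smoke replicates 1 to 6. In air replicates 1 to 8 it read 11.21, 10.71, 10.43, 10.55, 11.65, 11.39, 10.58 and 10.54. The 4 lowest smoke arrays lay below every air array, and the other 2 lay above 5 of the 8 air arrays. The difference was -0.54 ± 0.21 (SE; limma adjusted p = 0.232) and passed when smoke replicate 5 or 6 was left out (adjusted p = 0.0349 and 0.0409). Those 4 low arrays are smoke replicates 1 to 4, which carry consecutive sample numbers together with air replicates 3 and 4, at 10.43 and 10.55. Within that run Igfbp6 averaged 9.96 in smoke (n = 4) and 10.49 in air (n = 2). Exposure and position in the run overlap in part, and their separate shares in this difference were not tested.

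The smoke effect on members also did not differ past the threshold between genotypes or strains. The test of the difference from the C57BL/6J smoke effect passed for 0 of 10 probes in Hhip+/- (0% of all probes, 0 members at an unadjusted p below 0.05), for 0 of 10 in Fam13a-/- (0.0325% of all probes, 2 members unadjusted) and for 0 of 10 in NZW/LacJ (0.273% of all probes, 0 members unadjusted). The 2 in Fam13a-/- were Emp2, with -0.39 ± 0.16 (SE; limma adjusted p = 0.308), and the brighter Aqp5 probe, with -0.26 ± 0.12 (SE; limma adjusted p = 0.401). The median over the 10 probes for Fam13a-/- was -0.17, against -0.02 over all probes.

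**Figure D3:**
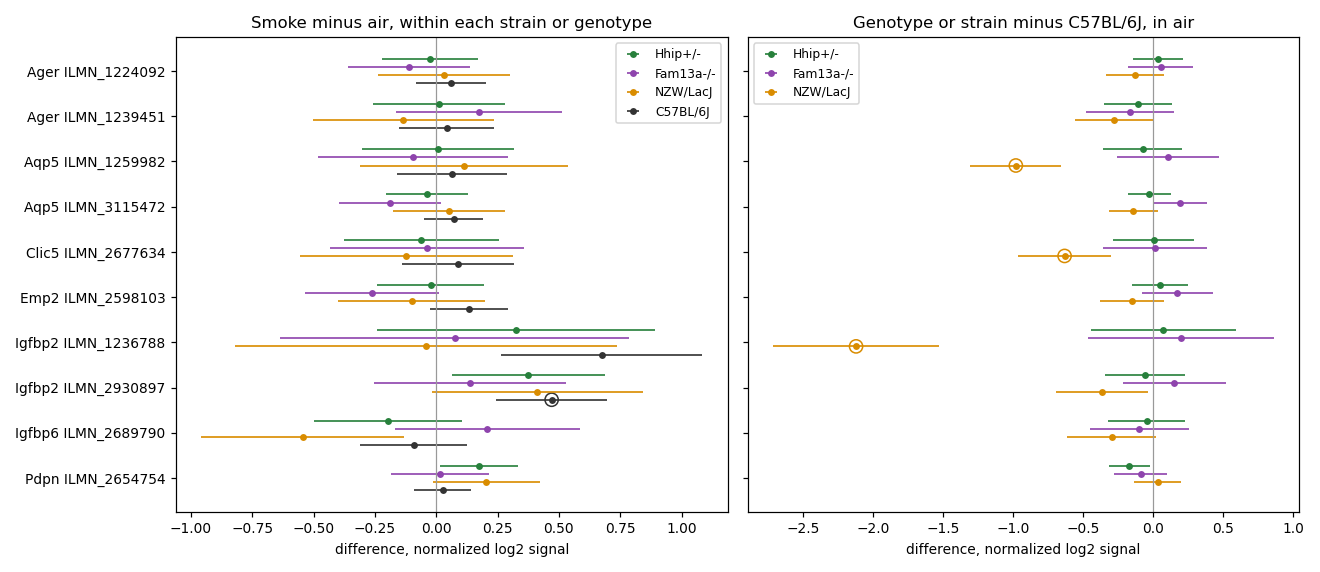
Differences in normalized log2 signal (horizontal axis) for the 10 probes (vertical axis), smoke minus air on the left and each genotype or strain minus C57BL/6J in air on the right. Points are limma estimates, bars their 95% intervals and rings mark an adjusted p below 0.05; on the left 1 probe is ringed (Igfbp2 in C57BL/6J), and on the right 3 NZW/LacJ values are ringed, all below 0.

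No member passed between either genotype and C57BL/6J. In air, 0 of 10 probes passed between Hhip+/- and C57BL/6J (0.0781% of all probes), with 1 member, Pdpn, at an unadjusted p below 0.05, and 0 of 10 between Fam13a-/- and C57BL/6J (0% of all probes, 0 members unadjusted). Pdpn averaged 12.50 ± 0.27 in Hhip+/- air and 12.67 ± 0.16 in C57BL/6J air (SD, n = 12 and 22), a difference of -0.17 ± 0.07 (SE; limma adjusted p = 0.523). In smoke, 0 of 10 passed between Hhip+/- and C57BL/6J (1.53% of all probes, 0 members unadjusted), and 0 of 10 between Fam13a-/- and C57BL/6J (5.19% of all probes), with Emp2 alone at an unadjusted p below 0.05. Emp2 averaged 12.48 ± 0.20 in Fam13a-/- smoke and 12.70 ± 0.21 in C57BL/6J smoke (SD, n = 13 and 28), a difference of -0.22 ± 0.09 (SE; limma adjusted p = 0.181). In smoke all 10 probes had a lower mean in Hhip+/- than in C57BL/6J, by 0.02 to 0.28, and none of these differences passed. In the same smoke comparison of Fam13a-/- with C57BL/6J, 6 of 7 ciliated cell genes were higher, with a median of 0.59, and the part of cell composition in the member values was not tested.

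NZW/LacJ lungs read lower than C57BL/6J lungs on several member probes, against a background in which a large part of the array differed between the strains. In air 3 of the 10 probes passed, all lower, where 42.2% of all probes passed, 22.1% higher and 20.1% lower. A share of 3 in 10 lies below that background. The dimmer Igfbp2 probe read 10.05, 6.83, 6.84, 8.41, 10.52, 8.20, 6.72 and 7.48 in NZW/LacJ air replicates 1 to 8, against 8.55 to 11.01 in 22 C57BL/6J air arrays (median 10.37). Of these 8, 2 lay within the C57BL/6J range and 6 below it. Its difference was -2.12 ± 0.30 (SE; limma adjusted p = 5.38e-09), or 4.35-fold lower in NZW/LacJ.

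The dimmer Aqp5 probe (ILMN_1259982) and Clic5 were the other 2 that passed in air. That Aqp5 probe read 11.47, 10.15, 9.52, 9.94, 10.58, 10.19, 9.60 and 9.76 in NZW/LacJ air replicates 1 to 8, against 10.44 to 11.63 in C57BL/6J air (median 11.22). Its difference was -0.98 ± 0.16 (SE; limma adjusted p = 5.64e-07), 1.97-fold lower, and 6 of 8 arrays lay below every C57BL/6J air array. Clic5 read 9.31, 8.88, 8.42, 8.58, 9.31, 8.58, 7.24 and 7.80 in NZW/LacJ air, against 8.26 to 9.62 in C57BL/6J air (median 9.10). Its difference was -0.63 ± 0.17 (SE; limma adjusted p = 0.00135), 1.55-fold lower, and 6 of 8 arrays overlapped the C57BL/6J range. Without NZW/LacJ air replicate 5 and smoke replicate 5, 7 of the 10 probes passed, all lower, where 45.7% of all probes passed and 22% were lower. The called differences were then -2.46 for the dimmer Igfbp2 probe, -1.04 for the dimmer Aqp5 probe and -0.75 for Clic5. The 4 added were the second Ager probe (-0.37), the brighter Igfbp2 probe (-0.47), Emp2 (-0.28) and Igfbp6 (-0.41).

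In smoke 8 of the 10 probes passed between NZW/LacJ and C57BL/6J, 7 of them lower, where 51% of all probes passed, 23.7% higher and 27.3% lower. Without the 2 doubted arrays 8 passed, where 57.2% of all probes did and 30.3% were lower. The dimmer Igfbp2 probe read 6.77, 5.69, 6.83, 9.67, 11.003 and 8.57 in NZW/LacJ smoke replicates 1 to 6, against 9.98 to 11.61 in 28 C57BL/6J smoke arrays, a difference of -2.84 ± 0.33 (SE; limma adjusted p = 3.87e-12). Without the doubted arrays that difference was -3.42. The probe was detected on 5 of these 6 NZW/LacJ arrays. The dimmer Aqp5 probe differed by -0.93 ± 0.18, Clic5 by -0.84 ± 0.18, Igfbp6 by -0.75 ± 0.17 and the second Ager probe by -0.46 ± 0.16 (SE). Emp2 differed by -0.39 ± 0.13 and the brighter Igfbp2 probe by -0.42 ± 0.18 (SE). Limma's adjusted p for these 6 probes ran from 7.69e-06 to 0.0415. Pdpn was the exception: it ran from 12.55 to 13.33 in 6 NZW/LacJ smoke arrays (median 12.86) and from 12.41 to 13.05 in C57BL/6J smoke (median 12.68), 0.21 ± 0.09 higher (SE; limma adjusted p = 0.0493). With median scaling in place of quantile normalization the Pdpn difference was 0.005 (adjusted p = 0.986).

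Since 4 of the 6 NZW/LacJ smoke arrays stand in the run of consecutive sample numbers, a term for that run was added to the model. That fit kept the doubted smoke replicate 5, which lies outside the run. This array read 9.71 for Clic5 and 11.64 on the dimmer Aqp5 probe, within the C57BL/6J smoke ranges. The term was not fitted without this array, so its part in the values with the term was not tested. With the term, 1 of the 8 calls in smoke remained, that of the dimmer Igfbp2 probe (-1.80; limma adjusted p = 0.001), and the second Ager probe turned to 0.06. Over all 15363 probes the calls of this comparison fell too, from 7828 to 1695. Emp2 differed by -0.36 and Pdpn by 0.20 with the term, close to their values without it, but their calls were lost (limma adjusted p = 0.153 and 0.295). Clic5 differed by -0.54, the dimmer Aqp5 probe by -0.42, the brighter Igfbp2 probe by -0.26 and Igfbp6 by -0.21, with adjusted p of 0.128 to 0.575. Leaving out single NZW/LacJ smoke arrays left 5 to 8 calls. Ager's second probe lost its call without replicate 1 or 2 (adjusted p = 0.122 and 0.172), Emp2 without replicate 2 (0.0743), Pdpn without replicate 3, 4 or 6 (0.0913, 0.163 and 0.289), and the brighter Igfbp2 probe without replicate 1, 2, 3 or 4 (0.126, 0.122, 0.112 and 0.0545). Strain and run cannot be told apart for the smoke arrays beyond this, because 1 undoubted NZW/LacJ smoke array lies outside it. In air 5 undoubted NZW/LacJ arrays lie outside the run, where the dimmer Igfbp2 probe averaged 7.86 and the dimmer Aqp5 probe 10.23.

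Probes of the same gene gave unequal strain differences. In air the Igfbp2 probes differed between NZW/LacJ and C57BL/6J by -2.12 (ILMN_1236788) and -0.37 (ILMN_2930897), and the Aqp5 probes by -0.98 (ILMN_1259982) and -0.14 (ILMN_3115472). The gap between the brighter and the dimmer probe within each array measures this directly. For Igfbp2 the gap averaged 2.67 in 8 NZW/LacJ air arrays (0.97 to 4.18) and 0.91 in 22 C57BL/6J air arrays (0.24 to 2.13), wider in NZW/LacJ by 1.75 (exact permutation test, two-sided, adjusted p = 9.67e-05 over 6 tests). All 8 NZW/LacJ arrays lay above the C57BL/6J mean. In smoke the Igfbp2 gap averaged 3.12 in 6 NZW/LacJ arrays and 0.71 in 28 C57BL/6J arrays, wider by 2.41 in NZW/LacJ (exact permutation adjusted p = 9.67e-05), with 5 of 6 arrays above the C57BL/6J mean.

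The Aqp5 gap averaged 2.28 in NZW/LacJ air and 1.44 in C57BL/6J air, wider by 0.84 with 8 of 8 arrays above the C57BL/6J mean (exact permutation adjusted p = 9.67e-05). In smoke it averaged 2.22 in NZW/LacJ and 1.45 in C57BL/6J, wider by 0.77 (exact permutation adjusted p = 0.000403). The Ager gap averaged 0.52 in NZW/LacJ air and 0.37 in C57BL/6J air (exact permutation adjusted p = 0.222), and 0.69 in NZW/LacJ smoke and 0.39 in C57BL/6J smoke, wider by 0.30 (exact permutation adjusted p = 0.0155). Without the doubted arrays the Igfbp2 gap was wider in NZW/LacJ by 1.996 in air and 2.94 in smoke. Within the C57BL/6J, Hhip+/- and Fam13a-/- arrays the deviations of the probes of a gene from their group means correlated at 0.60 for Ager, 0.52 for Igfbp2 and 0.21 for Aqp5 (Pearson, 95 arrays). A strain level of Igfbp2 or Aqp5 thus depends on the probe read, and whether a sequence variant under a probe or a transcript form bears on it was not tested.

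**Figure D4:**
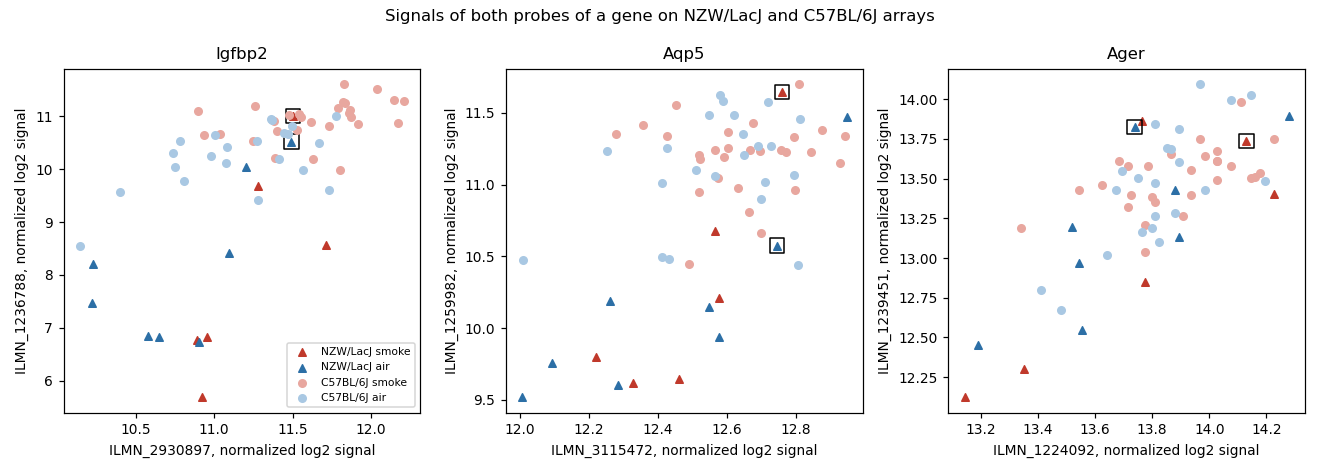
Normalized log2 signal of the dimmer probe (vertical axis) against that of the brighter probe (horizontal axis) of Igfbp2, Aqp5 and Ager, in NZW/LacJ arrays (triangles) and C57BL/6J arrays (circles), smoke in red and air in blue. Each point is an array and black squares mark the 2 arrays doubted for strain; for Igfbp2 and Aqp5 most NZW/LacJ arrays lie below the C57BL/6J cloud at the same brighter-probe signal, and for Ager the gap between the probes averages 0.69 in NZW/LacJ smoke, 0.52 in NZW/LacJ air, 0.39 in C57BL/6J smoke and 0.37 in C57BL/6J air.

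Other genes of type 1 cells and of the pathways these members belong to were read at the brightest kept probe of each gene. Of 25 other genes used as type 1 cell markers 20 were measured, and 0 passed in limma for smoke in any strain or genotype, with 1, 1, 5 and 1 at an unadjusted p below 0.05 in Hhip+/-, Fam13a-/-, NZW/LacJ and C57BL/6J. Their median smoke effect was 0.00 in Hhip+/-, -0.23 in Fam13a-/-, 0.03 in NZW/LacJ and 0.07 in C57BL/6J, against 0.00, -0.03, -0.05 and -0.01 over all genes. Beside the Fam13a-/- value, 2 of 8 blood endothelial genes were lower with smoke in those lungs, where 1.8% of all probes passed. They were Sox17 (-0.69) and Tek (-0.51), and the part of endothelium in the Fam13a-/- value was not tested. Of 12 measured regulators of type 1 cell fate and Hippo pathway targets, 1 passed for smoke, in NZW/LacJ, where 0.768% of all probes passed. It was Ccn1, a matricellular protein induced by YAP, which averaged 9.75 in NZW/LacJ smoke and 8.52 in NZW/LacJ air (1.23 ± 0.31, SE; limma adjusted p = 0.0389). Of 6 measured RAGE ligands, 8 podoplanin partners, 9 genes of the insulin-like growth factor axis and 7 relatives of the members, 0 passed in limma for smoke in C57BL/6J, with 0, 1, 0 and 1 at an unadjusted p below 0.05 and medians of 0.10, 0.00, -0.08 and 0.00. Of 12 water and ion channel genes 1 passed for smoke, in Fam13a-/- lungs, where 1.8% of all probes passed. It was the water channel gene Aqp4, at 7.60 in smoke and 6.59 in air (1.01 ± 0.27, SE; limma adjusted p = 0.031).

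The Krt8-high state is one that alveolar cells pass through between type 2 and type 1 identity. Of its 10 measured genes, 2 rose with smoke in C57BL/6J lungs, where 0.833% of all probes passed. The median was 0.24 over the list and -0.01 over all genes. Krt19, a keratin gene, averaged 9.77 in smoke and 9.28 in air (0.49 ± 0.10, SE; limma adjusted p = 0.00056). Hbegf, an EGF-receptor ligand gene, averaged 9.61 in smoke and 9.20 in air (0.42 ± 0.11, SE; limma adjusted p = 0.0383). Averaged over Hhip+/-, Fam13a-/- and C57BL/6J, 4 of 10 rose, where 2.32% of all probes passed: Sfn, Krt19, Lgals3 and Krt18, by 0.84, 0.42, 0.32 and 0.21. In the same average the club cell gene Scgb3a1 was higher by 1.44 (limma adjusted p = 0.0349) and the endothelial gene Tek differed by -0.24 (adjusted p = 0.0367), and the part of those cells was not tested. Several of these are also genes of airway and mesothelial cells, and Krt19 stands in the mesothelial list as well. Of the 11 genes of type 2 cells measured, 0 passed for smoke in C57BL/6J, with 2 at an unadjusted p below 0.05 and a median of -0.10. Of the other cell types read in that comparison (club, ciliated, basal, blood and lymphatic endothelial, fibroblast, smooth muscle, alveolar macrophage, T, B, neutrophil, heart muscle and fat), 0 measured genes passed in limma, and 1 club cell and 1 fibroblast gene had an unadjusted p below 0.05.

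Between strains, genes of other cells moved beside the members. Against the 22.1% of all probes that were higher and the 20.1% that were lower in air, 8 of 11 type 2 cell genes were lower in NZW/LacJ than in C57BL/6J, with a median of -1.17 over the list and 0.05 over all genes. Lamp3, a lysosomal membrane protein of lamellar bodies, averaged 8.26 in NZW/LacJ air and 10.86 in C57BL/6J air. All 5 neutrophil genes were lower, with a median of -2.05, as were 4 of 5 alveolar macrophage genes, while 6 of 7 ciliated cell genes and 4 of 6 mesothelial genes were higher, with medians of 0.61 and 1.07. The mesothelial gene Upk1b went the other way, at 8.54 in NZW/LacJ air and 9.84 in C57BL/6J air (limma adjusted p = 1.82e-08). Of the 20 other type 1 cell markers, 4 were higher and 5 lower, near the share over all probes. Cldn18, a tight junction gene of alveolar epithelium, averaged 11.18 in NZW/LacJ and 12.12 in C57BL/6J (limma adjusted p = 2.99e-07), and Agrn, a basement membrane gene, averaged 12.95 in NZW/LacJ and 12.23 in C57BL/6J (adjusted p = 1.09e-06). Among the RAGE ligands 4 of 6 were lower, led by S100a8 and S100a9, which are neutrophil genes too, at -2.34 and -2.10. Igfbp5, another binding protein of the family, was higher by 0.96. The part of these cell types in the member values was not tested.

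Members varied together across arrays once the group means were taken out. Over all arrays the 21 pairs of the 7 measured genes, each read at its brightest kept probe, had Pearson r of 0.12 to 0.61, with a median of 0.32. By permutation within groups, two-sided and adjusted over the 21 pairs, 19 passed for r, and 13 for both r and Spearman's rank correlation. Ager and Clic5 were the closest pair (r = 0.61, Spearman 0.59, both permutation p = 1e-05, the smallest the resamples can give). Aqp5 and Emp2 followed (r = 0.57, Spearman 0.56). Aqp5 was read at ILMN_3115472, whose r with the dimmer Aqp5 probe was 0.37 over all arrays. In the 95 C57BL/6J, Hhip+/- and Fam13a-/- arrays that r was 0.21. The dimmer probe was not paired with other genes, so the Aqp5 pairs stand for the brighter probe only. Ager and Igfbp6, with r = 0.17, and Pdpn and Igfbp6, with r = 0.12, did not pass. Without the 2 arrays farthest from the median of the first gene, r ran from 0.09 to 0.60. Without the NZW/LacJ arrays doubted for strain it ran from 0.13 to 0.61. In the 95 C57BL/6J, Hhip+/- and Fam13a-/- arrays r ran from 0.04 (Pdpn and Igfbp6) to 0.59 (Aqp5 and Emp2). There Aqp5 with Clic5 and Clic5 with Igfbp6 each had r = 0.08, against 0.26 over all arrays, while Ager with Clic5 had 0.55. No permutation test was run on these smaller sets.

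These relations did not hold in every set of arrays. In the larger residual set all 21 pairs had r above 0, with a median of 0.40. In the smaller set, 12 of 21 did, with a median of 0.08 and a range of -0.43 to 0.67. The arrays described below as low for most members at once all fell in the larger set. Their part in this contrast and in the pair correlations was not tested. Within the 8 groups, 4 pairs were positive in all of them. All genes of an array share its RNA, its normalization and its quality, so these relations were also set beside those with the other 10440 genes. The median r with those genes was between -0.05 and 0.06 for each of the 7. Emp2 ranked at 9 among them by likeness to the brighter Aqp5 probe, and Clic5 at 18 by likeness to the brighter Ager probe. Thus 0.0766% and 0.163% of genes were more alike. Other pairs were less close: of 42 ordered pairs, 22 had more than 5% of genes more alike, up to 41% for Pdpn among genes like Igfbp6.

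**Figure D5:**
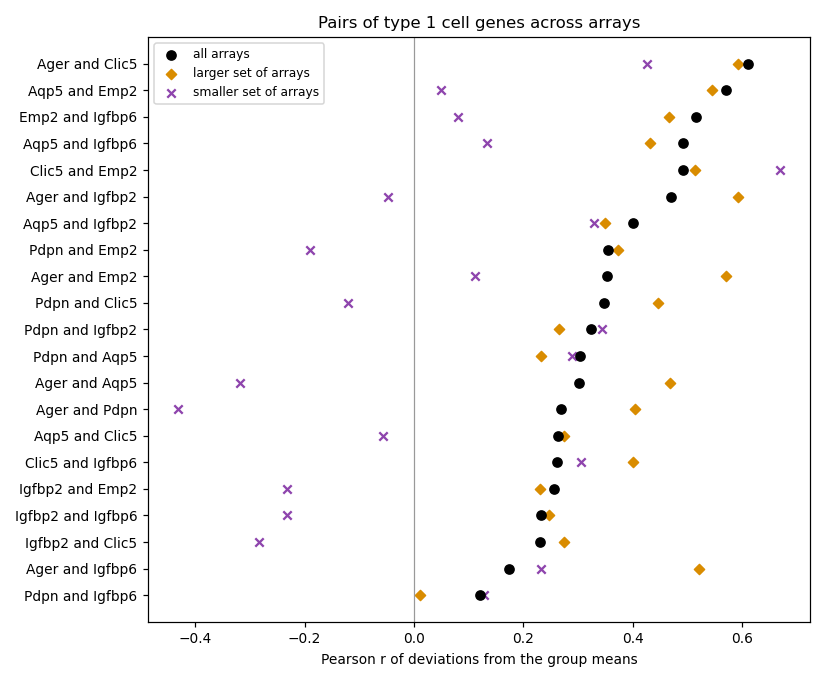
Pearson r of deviations from the group means (horizontal axis) for the 21 pairs of measured type 1 cell genes (vertical axis), over all arrays (circles), the 80 arrays of the larger residual set (diamonds) and the 27 of the smaller (crosses). All circles and diamonds lie above 0, from 0.12 to 0.61 and from 0.01 to 0.59, while crosses spread from -0.43 to 0.67.

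Several arrays were low for most members at once. Hhip+/- smoke replicate 9 and Hhip+/- air replicate 6 were each the lowest of their group on 9 of the 10 member probes, C57BL/6J air replicate 8 on 7, and NZW/LacJ smoke replicate 2 on 6. On the first 3 of these arrays the 7 genes lay on average 0.72, 0.61 and 0.68 below their group means. The 20 other type 1 cell markers were lowest of the group there too, at -0.62, -0.51 and -0.54, and so were 8 blood endothelial genes, at -1.14, -0.42 and -0.59. Markers of some other cells were the highest of their group on some of these arrays: T cell genes at 1.29 on Hhip+/- smoke replicate 9 and 1.18 on Hhip+/- air replicate 6, and alveolar macrophage genes at 0.67 on Hhip+/- air replicate 6 and 0.97 on C57BL/6J air replicate 8. Macrophage genes (-0.19) on Hhip+/- smoke replicate 9 and T cell genes (0.44) on C57BL/6J air replicate 8 were at neither end. Smooth muscle genes were the lowest of their group on Hhip+/- smoke replicate 9 and Hhip+/- air replicate 6, at -0.50 and -0.37. T cell and alveolar macrophage genes were the lowest of the group on NZW/LacJ smoke replicate 2, at -0.51 and -0.63. Ciliated cell and fibroblast genes were the highest there, each at 0.39. The share of probes detected on the first 3 arrays was 51.8%, 49.9% and 51.6%, near the median of 49.9%. On NZW/LacJ smoke replicate 2 it was 45.1%, the lowest of its group. The marker deviations of that array were taken from a group mean that includes the doubted smoke replicate 5. The part of these marker shifts in the member levels and in the pair correlations was not tested.

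The genes most like each member, among 10440 others by r of deviations from group means over all arrays, included 4 of the other type 1 cell markers. For Ager they were Pmp22 (0.76), Cldn18 (0.69) and Fez2 (0.68). For Clic5 they were Nhlrc2 (0.74), Bnip2 (0.73) and Fgf1 (0.70), and for Emp2 Bcl2l2 (0.75), Inmt (0.74) and Amph (0.74). Aqp5 stood closest to Fads3 (0.64), Krt7 (0.63) and Cd151 (0.60), and Igfbp6 to Pfdn2 (0.73), Cyp4b1 (0.72) and Alg1 (0.71). Igfbp2 stood closest to Mxra8 (0.59), Reck (0.58) and Gprc5a (0.58), and Pdpn to Dync1i2 (0.54), Tmem30a (0.53) and Hs2st1 (0.53). Those 4 are Cldn18, Krt7, Cyp4b1 and Gprc5a. Pmp22 encodes the myelin protein after which the family of Emp2 is named. No test was made of these likenesses.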

How the data were processed

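The authors deposited probe intensity values with a detection p-value for each probe on every array; per the file headers these are not normalized. A second deposited file holds log2 values that the authors had normalized, by a method that the labels and headers do not name. It served as an alternative. The intensities were processed with neqc of limma 3.58.1 (R 4.3.3, the data.table package, version 1.17.8): normexp from the detection p-values, offset 16, quantile normalization, log2. Probes with detection p below 0.01 on at least 6 arrays were kept. All 8 groups entered 1 group-means model (lmFit, eBayes, 101 residual degrees of freedom), and every comparison is a contrast in it, two-sided, adjusted by Benjamini-Hochberg over 15363 probes, threshold 0.05. The fit was tested on simulated data.

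Gene symbols came from the platform annotation (23978 probes with 1 symbol, 1719 with none), updated through a RefSeq table of GRCm38.p6 by gene identifier. Promoters came from RefSeq on GRCm38.p6, where 9 of 10 members matched. Correlations used 100000 resamples within groups in Python 3.11.15 with numpy 2.4.6 and scipy 1.17.1, and figures matplotlib 3.10.9. All 10 members are named; of other lists, up to 4 called genes a comparison by smallest adjusted p, and for likeness the 3 closest named genes, without clone or locus names. Gene lists were read at the brightest kept probe. The members and lists were chosen with earlier results of these data known. Leaving out C57BL/6J air replicate 8, the residual sets (k-means of residuals) and the probe gap test were chosen after seeing the data. Slides as a block were not run, since the headers name none, and the human samples named by the series title were not analysed here.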

Additional observations from a re-analysis of the deposited data

Results flagged for a closer look

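In the 6 Fam13a-/- air arrays, replicate 4 read 14.15 on the brighter Ager probe (ILMN_1224092) and 11.19 on the dimmer Igfbp2 probe (ILMN_1236788), far above the nearest of the other 5 arrays relative to the range of the group. Those 2 were the cases among 30 combinations of a probe and a group of 4 to 10 arrays that were examined in this way, and chance gives about 1 in 20. Leaving that array out, as any other Fam13a-/- air array, left 0 member probes past the threshold for smoke in Fam13a-/- lungs.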

How the results depend on the processing

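For smoke in C57BL/6J, where 1 member probe passed, 0 passed with median scaling in place of quantile normalization (brighter Igfbp2 probe 0.56, limma adjusted p = 0.0527), and 2 passed with the authors' values, with array weights, without the doubted NZW/LacJ arrays or with the residual set as a term. The brighter Igfbp2 probe passed in 12 of 13 alternatives, at 0.42 to 0.56. For the average smoke effect, where 1 passed, 0 passed with median scaling or without the detection filter, 2 with array weights, and 0 to 1 with each Hhip+/- or Fam13a-/- array left out. For smoke in NZW/LacJ, where 0 passed, 1 passed with array weights (Igfbp6, -0.85) and 0 to 1 with each array left out. For its difference from C57BL/6J, where 0 passed, 2 passed with array weights. For NZW/LacJ against C57BL/6J in air, where 3 passed, 1 passed with the brightest probe of each gene, 7 without the doubted arrays or with the residual set as a term, 8 with array weights or without C57BL/6J air replicate 8 and the doubted arrays, and 3 to 7 with each array left out. In smoke, where 8 passed, 5 passed with the brightest probe, 1 with the run of consecutive numbers as a term, under which the second Ager probe reversed to 0.0601 (limma adjusted p = 0.878), and 5 to 8 with each array left out. The causes were not tested, except that the brightest-probe setting holds 7 probes. Over all probes, smoke in Hhip+/-, Fam13a-/-, NZW/LacJ and C57BL/6J called 28, 277, 118 and 128. Median scaling called 5, 59, 7 and 88, and array weights 207, 2043, 2725 and 223. With the run as a term and the doubted arrays kept, NZW/LacJ against C57BL/6J in smoke called 1695 probes, against 7828 without the term. The counts of 0 for Hhip+/- and Fam13a-/- held in all alternatives run. C57BL/6J arrays other than air replicate 8 were not left out singly. No paired analysis was possible because the labels give no replicate numbers shared between groups. Signal near background limits what a probe shows, as on the NZW/LacJ smoke array where the dimmer Igfbp2 probe was not detected.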
